A study of Mus musculus with 69 samples.

Results

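The chemokine genes of the mouse were followed through poly(A) RNA-Seq of cultured vascular smooth muscle cells (VSMC) and endothelial cells (EC) that had been exposed to metabolic and vasoactive stressors. A gene was taken as a member when its row in the count tables belonged to a protein-coding gene whose symbol starts with Ccl or Cxcl and a number, or is Cx3cl1 or Xcl1, which gave 42 genes of the 56953 gene identifiers counted. Of these, 24 averaged 1 FPM or more in some cell type and are described singly. FPM, the unit of level used throughout, relates the counts of a gene to the library size after TMM scaling over all 69 libraries, so that 1 FPM stood for 16.6 to 42.7 counts. It compares a gene between libraries but not genes of unequal length.

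Cells came from male C57BL/6 mice. WT VSMC and KO VSMC were grown from the aorta, and KO mice carried SM22-Cre with Egfr flox/flox, so that the deletion depends on the activity of the smooth muscle SM22 promoter. EC were grown from the heart after magnetic bead selection (CD45-/CD31+) and were selected again with CD31. All cultures were kept without serum for 24 h in the presence of bovine serum albumin, as untreated Control, with 20 mM glucose and free fatty acids (HG + FFA, at 100 µM per the labels and at 100 µM each of oleate and palmitate per the methods), with 30 nM angiotensin II and 300 nM of a catecholamine that the labels name epinephrine and the methods norepinephrine (AII + NA), or with all of these together (ALL). A set is one preparation of cells split over the 4 conditions, and its number names the replicate. The tables held 16 WT VSMC libraries (sets 1 to 4), 15 KO VSMC libraries (sets 5 to 8, without ALL of set 5) and 38 EC libraries (sets 9 to 18, without Control of set 10 and AII + NA of set 15). The 18 sets came from 13 animals: EC sets 17 and 18 came from 1 animal, and 4 EC sets shared their animal with a VSMC set. Of these animals, 2 gave EC and WT VSMC sets and 2 gave EC and KO VSMC sets. The sample titles name all EC as WT, those from the donors of KO VSMC included. VSMC and EC carry different batch labels, so cell type, organ of origin and batch cannot be told apart.

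Chemokines are small secreted proteins that guide leukocytes along a gradient by way of G protein-coupled receptors. Inflammatory chemokines such as Ccl2 and Cxcl1 are switched on by cytokines through NF-kB, interferon-induced ones such as Cxcl10 through the ISRE element, and homeostatic ones such as Cxcl12 are made without stimulus and position cells within a tissue. In the vessel wall, smooth muscle cells and endothelium are both sources of chemokines for monocytes, neutrophils and T cells.

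Library depth was 23626664 to 37801299 counts (WT VSMC), 23238979 to 35120866 (KO VSMC) and 17166133 to 43240489 (EC), of which 141244 to 243690, 127475 to 216774 and 10558 to 213992 fell on chemokine genes. Egfr, the targeted gene, was at 283 to 504 FPM in the WT VSMC Control libraries and at 0.54 to 1.96 FPM in every library of KO sets 6 to 8, but at 33.4 to 40.2 FPM in KO set 5. EC sets 9, 11 and 13 stood apart from the other EC sets. The summed FPM of 9 endothelial markers (Pecam1, Cdh5, Kdr and others) was 362, 411 and 410 in these sets, against 129 to 358 in the VSMC sets and 973 to 5634 in the other EC sets. Pecam1, which encodes the CD31 used for the selection, was at 25.9, 41.4 and 17.9 FPM there, against 0.335 to 13.1 FPM in the VSMC sets and 262 FPM or more in the other EC sets. Eng, which VSMC expressed at 123 to 356 FPM, made up most of their marker sum (304, 282 and 352 FPM). Calls for EC are therefore also given without these 3 sets. Among 12 leukocyte markers the summed level was 38.7 to 302 FPM (WT VSMC), 30.2 to 206 (KO VSMC) and 12.3 to 133 (EC), with Lyz2 highest and Ptprc, the pan-leukocyte CD45, at 1.67 FPM or less in any library. In bulk samples a change in the number of cells of a type and a change in RNA per cell cannot be told apart.

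One gene took most of the chemokine FPM, a unit not corrected for gene length. Cxcl12, the ligand of Cxcr4 and Ackr3 that holds haematopoietic and progenitor cells in place, took a median of 96% (WT VSMC), 94.6% (KO VSMC) and 75.9% (EC) of all chemokine FPM. Single EC libraries ran from 21.4% to 96.5%. Cxcl12 has 8346 exon bases, against 1138 for Ccl2 and 807 for Ccl7, so these are not shares of transcripts. The summed level of the 42 genes had medians of 5915 FPM, 5954 FPM and 1125 FPM in the same order, and without Cxcl12 these medians were 266, 291 and 356 FPM. Per kb of exon and averaged over libraries, Cxcl12 ranked first in each cell type (692, 700 and 308 FPM per kb in WT VSMC, KO VSMC and EC), Ccl7 was the second (174, 50.01 and 116) and Ccl2 the third (94.2, 39.8 and 106). The EC mean of Cxcl12 came mostly from sets 9, 11 and 13 (5860, 9310 and 4745 FPM). The ranking per kb is one of means and was not worked out set by set. It did not hold in every EC set, since set 10 had 245 FPM of Cxcl12 and 335 FPM of the shorter Ccl2. Of the 42 genes, 22, 17 and 15 averaged at least 1 FPM in the 3 cell types in the same order. The 18 genes that stayed under 1 FPM in all cell types were Ccl1, Ccl3, Ccl4, Ccl12, Ccl17, Ccl21a, Ccl21b, Ccl21d, Ccl22, Ccl24, Ccl26, Cxcl2, Cxcl3, Cxcl9, Cxcl11, Cxcl13, Cxcl17 and Xcl1. Ccl17 (0.791 FPM) and Cxcl2 (0.785 FPM) in EC came closest to 1 FPM, and Xcl1 had no count in any library.

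**Figure D1:**
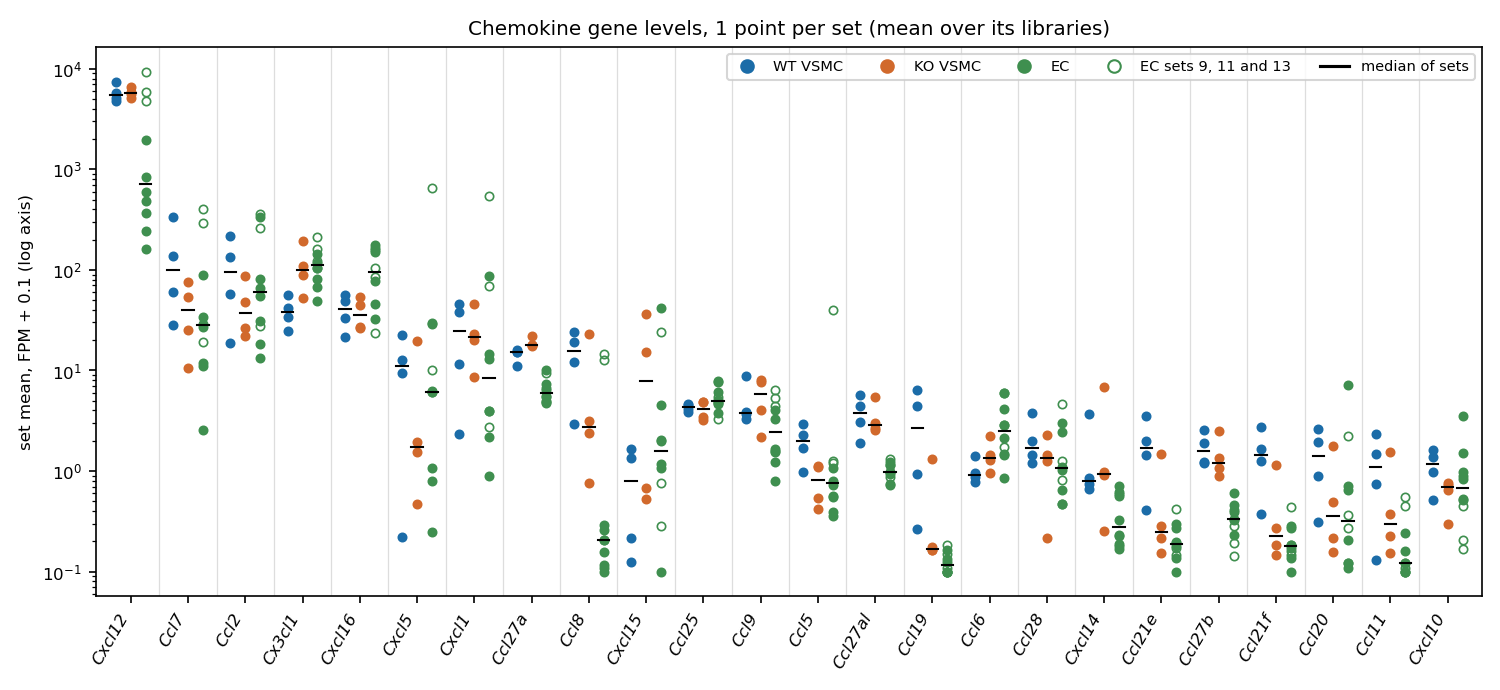
Level of the 24 named chemokine genes in each set, as the mean over its libraries in FPM plus 0.1 on a log axis, with genes on the horizontal axis. Points are sets of WT VSMC, KO VSMC and EC, open circles are EC sets 9, 11 and 13 and black bars are medians of sets. The medians of Cxcl12 lie above those of the other genes, and its EC points run from 162 to 9310 FPM.

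Cxcl12 varied little among VSMC sets and by a wide margin among EC sets. The set means were 4739 to 7441 FPM in WT VSMC and 5125 to 6590 FPM in KO VSMC. In EC, sets 9, 11 and 13 had 5860, 9310 and 4745 FPM, whereas the other sets had 162 to 1938 FPM, so the sets low in endothelial markers lay within or above the VSMC range. The same 3 sets had 3663, 8952 and 9922 FPM of 6 fibroblast markers (Pdgfra, Dpt, Lum, Dcn, Col1a1 and Tcf21) and 784, 3161 and 2887 FPM of 7 smooth muscle markers, while the other EC sets had 606 to 4427 and 211 to 710 FPM. The WT VSMC sets themselves had 4408 to 9440 FPM of the fibroblast markers and 709 to 1234 FPM of the smooth muscle markers. Acta2 made up most of the latter (887 FPM on average in WT VSMC, against 7.46 FPM of Myh11). The part of fibroblasts or smooth muscle cells in the Cxcl12 level of EC was not tested.

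**Figure D2:**
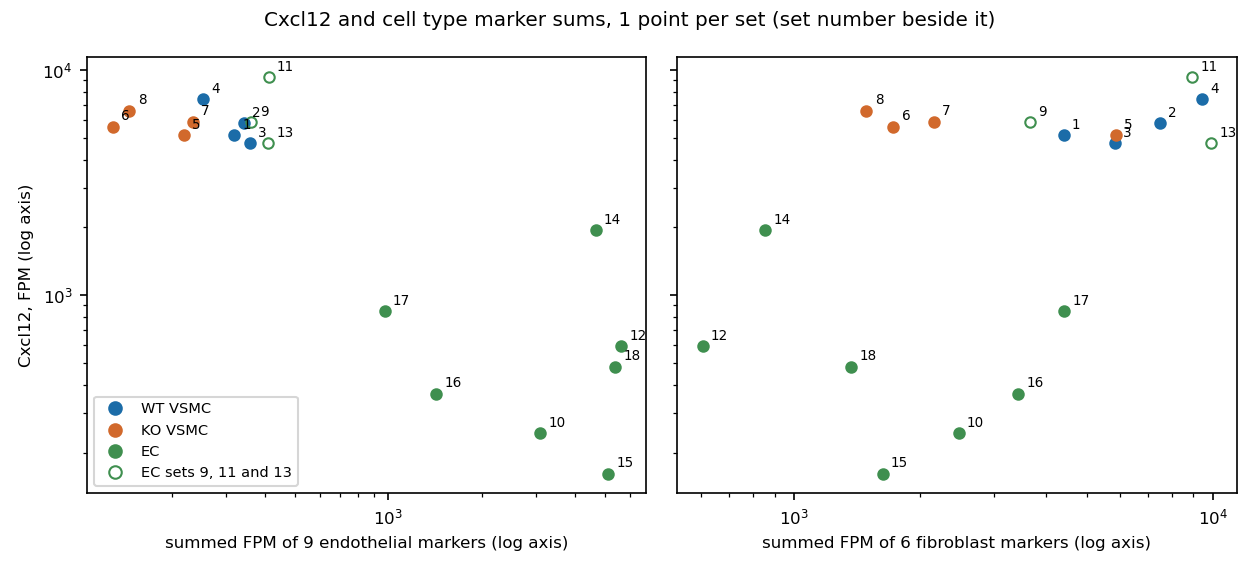
Cxcl12 level of each set in FPM against the summed FPM of 9 endothelial markers (left) and 6 fibroblast markers (right), both axes on a log scale, with the set number beside each point. EC sets 9, 11 and 13 (open circles) lie at 362 to 411 FPM of endothelial markers, just above the VSMC sets, and within or above them in Cxcl12, while the other EC sets lie at 1938 FPM of Cxcl12 or less.

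The monocyte attractants Ccl2 and Ccl7, ligands of Ccr2 encoded side by side on chromosome 11, came next. Averages here and in the next paragraphs are over the libraries of a cell type, and ranges in brackets are those of the set means. Ccl2 averaged 107 FPM (18.6 to 218) in WT VSMC, 45.3 FPM (21.8 to 86.2) in KO VSMC, and in EC 121 FPM (13.1 to 364). Ccl7 averaged 140 FPM (28.2 to 336), 40.4 FPM (10.5 to 75.2) and 93.3 FPM (2.44 to 400) in the same order. The highest EC values of both were in set 11, while Ccl2 was almost as high in set 10 (335 FPM), a set with 3094 FPM of endothelial markers. Ccl8, a further CC chemokine of this cluster, averaged 14.5, 6.20 and 2.92 FPM in WT VSMC, KO VSMC and EC. Its EC mean came from sets 11 and 13 (14.4 and 12.7 FPM), and the other EC sets were at 0.191 FPM or less. Ccl11, the eosinophil attractant eotaxin, was at 1.07, 0.406 and 0.110 FPM.

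The neutrophil attractants that act through Cxcr2 spanned the widest range. Cxcl1 averaged 24.4 FPM (2.23 to 46.1) in WT VSMC, 24.7 FPM (8.50 to 46.01) in KO VSMC, and in EC 74.9 FPM (0.80 to 540). Cxcl5 averaged 11.2 and 4.86 FPM in the WT and KO cells, and in EC 76.6 FPM (0.146 to 648). Set 11 held the highest EC value of both genes and was the only EC set above 100 FPM for either. Cxcl15, known as lungkine for its expression in lung epithelium, averaged 0.735 FPM (0.023 to 1.54) in WT VSMC, 13.02 FPM (0.421 to 36.6) in KO VSMC, and in EC 8.05 FPM (0 to 41.6). Most of the Cxcl15 signal came from KO sets 5 and 8 and from EC sets 9 and 14, and it was near 0 in others of the same cell type. The 27.6% of Cxcl5 exon bases that overlap a lncRNA on the other strand leave its level uncertain, since the strand setting of the counting is not given in the sources used here.

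Cx3cl1 and Cxcl16 are made as transmembrane proteins and shed by proteases. Cx3cl1 (fractalkine), which tethers monocytes that carry Cx3cr1, averaged 39.1 FPM (24.5 to 56.4) in WT VSMC, 115 FPM (52.7 to 192) in KO VSMC, and in EC 119 FPM (49.5 to 214). Cxcl16, which is both a ligand of Cxcr6 and a scavenger receptor, averaged 39.9, 38.7 and 98.9 FPM. As 84.8% of Cxcl16 exon bases are shared with Med11 and Zmynd15 on the opposite strand, its level is uncertain.

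The remaining genes were low. Ccl5, Ccl6 and Ccl9, CC chemokines that attract monocytes and other leukocytes, averaged 1.86, 0.907 and 4.82 FPM in WT VSMC, against 0.675, 1.38 and 5.20 FPM in KO cells, and 4.80, 2.73 and 3.02 FPM in EC. The EC mean of Ccl5 came from set 11 alone (40.0 FPM), since the other EC sets were at 0.258 to 1.16 FPM. Cxcl10, the interferon-induced attractant of Cxcr3-bearing T cells, averaged 1.02, 0.501 and 0.795 FPM, and Cxcl14, a homeostatic chemokine of epithelia, 1.39, 1.83 and 0.266 FPM in WT VSMC, KO VSMC and EC. Of the lymphoid and epithelial chemokines, Ccl25 averaged 4.18, 4.05 and 5.26 FPM, Ccl28 2.00, 1.19 and 1.43, and Ccl20 1.34, 0.596 and 0.955 in the same order. Ccl19, which guides dendritic cells and T cells through Ccr7, averaged 2.90, 0.294 and 0.0256 FPM. Ccl27a averaged 14.2, 18.9 and 6.49 FPM, Ccl27al 3.68, 3.21 and 0.902, Ccl27b 1.62, 1.28 and 0.236, Ccl21e 1.73, 0.370 and 0.108 and Ccl21f 1.40, 0.287 and 0.105. The Ccl21 genes and the Ccl27 genes share sequence: all 100-base stretches of Ccl21e and Ccl21f, 69.4% of those of Ccl27b, 32.9% of Ccl27al and 15.9% of Ccl27a occur in another copy. Reads with several alignments were counted, so the split among these genes is uncertain. Ccl27a is uncertain also because 26.4% of its exon bases overlap Il11ra1 and a lncRNA on the opposite strand.

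Set identity accounted for more of the variation than the stressors did. For the 24 named genes, on the log2 scale with 0.1 FPM added, differences between sets took a median of 75.8% (WT VSMC), 81.9% (KO VSMC) and 80.6% (EC) of the variance. Differences between conditions took 8.78%, 5.85% and 2.46%. These are shares of the summed squares with the set entered first, not scaled for the number of sets and conditions. EC had 10 sets and each kind of VSMC 4, beside 4 conditions, so EC shares do not compare directly with those of VSMC. Conditions took more than sets in 4 of the 72 combinations of gene and cell type. These were Ccl5 (50.4% against 24.3%), Ccl6 (52.4% against 26.6%) and Ccl20 (34.1% against 33%) in WT VSMC and Ccl27a (33.4% against 16.7%) in KO VSMC.

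Promoters are shown for 8 of the chemokine genes described next, chosen with their values known. The 250 bases before the start of the principal transcript (GRCm39, GENCODE) are given 5′ to 3′ on the strand of the gene, with matches to the NF-kB consensus or the ISRE (TTTC, any 2 bases and TTTC again) on either strand in capitals. The positions are chr5:91038844-91039093 (plus) for Cxcl1, chr5:90906987-90907236 (plus) for Cxcl5, chr1:83094237-83094486 (plus) for Ccl20, chr11:83421346-83421595 (minus) for Ccl5, chr5:92496749-92496998 (minus) for Cxcl10, chr5:90942143-90942392 (plus) for Cxcl15, chr8:95498387-95498636 (plus) for Cx3cl1 and chr11:81926147-81926396 (plus) for Ccl2.
Cxcl1: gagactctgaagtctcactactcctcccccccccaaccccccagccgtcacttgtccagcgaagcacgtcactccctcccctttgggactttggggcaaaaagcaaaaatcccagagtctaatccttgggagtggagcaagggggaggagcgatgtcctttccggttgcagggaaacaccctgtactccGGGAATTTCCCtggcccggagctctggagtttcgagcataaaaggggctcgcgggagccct
Cxcl5: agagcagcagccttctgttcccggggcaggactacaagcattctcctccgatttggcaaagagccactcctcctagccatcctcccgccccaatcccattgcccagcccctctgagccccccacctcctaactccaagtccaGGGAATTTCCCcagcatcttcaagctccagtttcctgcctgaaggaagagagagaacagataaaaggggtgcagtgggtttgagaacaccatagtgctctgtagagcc
Ccl20: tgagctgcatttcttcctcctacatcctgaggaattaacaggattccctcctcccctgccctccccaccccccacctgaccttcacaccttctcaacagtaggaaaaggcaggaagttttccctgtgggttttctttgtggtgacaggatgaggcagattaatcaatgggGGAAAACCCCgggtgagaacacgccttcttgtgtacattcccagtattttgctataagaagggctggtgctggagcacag
Ccl5: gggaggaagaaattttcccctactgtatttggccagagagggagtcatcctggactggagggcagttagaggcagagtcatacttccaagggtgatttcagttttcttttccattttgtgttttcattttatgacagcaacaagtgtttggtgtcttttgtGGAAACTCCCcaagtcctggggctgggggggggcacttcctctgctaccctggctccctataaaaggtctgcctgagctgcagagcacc
Cxcl10: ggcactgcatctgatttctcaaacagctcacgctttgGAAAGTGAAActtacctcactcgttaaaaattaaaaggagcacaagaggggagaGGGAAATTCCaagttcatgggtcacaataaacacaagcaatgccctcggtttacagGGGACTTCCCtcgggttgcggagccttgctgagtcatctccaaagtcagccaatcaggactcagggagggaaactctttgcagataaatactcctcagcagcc
Cxcl15: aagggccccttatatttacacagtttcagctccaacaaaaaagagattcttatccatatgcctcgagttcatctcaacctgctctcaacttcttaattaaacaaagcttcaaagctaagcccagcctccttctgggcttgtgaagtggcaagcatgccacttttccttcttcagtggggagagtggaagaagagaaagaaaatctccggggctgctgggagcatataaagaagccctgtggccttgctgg
Cx3cl1: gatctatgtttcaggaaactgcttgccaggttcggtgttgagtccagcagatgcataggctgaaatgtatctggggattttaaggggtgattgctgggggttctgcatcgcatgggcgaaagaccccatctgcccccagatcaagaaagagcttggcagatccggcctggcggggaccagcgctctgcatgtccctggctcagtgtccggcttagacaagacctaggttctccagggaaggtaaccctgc
Ccl2: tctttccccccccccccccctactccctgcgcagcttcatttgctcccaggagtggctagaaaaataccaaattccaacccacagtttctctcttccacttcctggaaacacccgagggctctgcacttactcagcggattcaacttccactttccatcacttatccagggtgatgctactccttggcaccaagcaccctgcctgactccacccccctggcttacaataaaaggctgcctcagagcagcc

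The NF-kB consensus occurred between 250 bases before and 50 bases after the start in 8 of 42 chemokine promoters (19.0%) and in 4.9% of 21157 protein-coding promoters. The promoters searched were not those of all 21664 protein-coding genes counted. Cxcl1 and Cxcl5 carried the same 11 bases GGGAATTTCCC, which hold one match on each strand that overlap each other, 61 and 108 bases before the start. Cxcl10 carried 2 NF-kB matches and an ISRE, and Ccl5 and Ccl20 carried 1 NF-kB match each. ISRE matches were found in 3 chemokine promoters (Ccl19, Cxcl10 and Cxcl14, 7.14%) and in 3.85% of the promoters searched. TATAAA, on either strand and anywhere in the window, was found in 12 chemokine promoters (28.6%) and in 13.3% of those searched. The windows of Cx3cl1, Ccl2 and Cxcl15 held no NF-kB or ISRE match, and the TATAAA of Cxcl15 lay 27 bases before the start. A match describes the letters of the window and is no evidence of binding.

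The stressors were compared within each cell type, with the set as a block. A gene was called a DEG at an FDR (Benjamini-Hochberg over all genes tested) under 0.05 in both edgeR and DESeq2, an absolute log2 fold change of at least 0.64 and a group whose mean reached 3 FPM, and FDR values below are from edgeR's quasi-likelihood test unless DESeq2 is named. The comparisons with Control share the same Control libraries, and those with AII + NA share the AII + NA libraries.

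In WT VSMC no chemokine gene was a DEG in any comparison of conditions. After HG + FFA, 26 members could be tested, and 1 was higher and 3 were lower at an unadjusted p under 0.05, where 5.29% and 5.9% of all genes tested passed in each direction (DEG, 0.189% and 0.101%). Ccl5, the T cell and monocyte attractant RANTES, had 2.87, 2.37, 1.89 and 2.26 FPM in the Control libraries of sets 1 to 4 and 1.06, 0.601, 0.279 and 1.36 FPM after HG + FFA. All 4 sets were lower and the groups did not overlap. The log2 fold change of Ccl5 was -1.58 (SE 0.457, FDR 0.158), its FDR was 0.0176 without the AII + NA library of set 2, and its level was below the 3 FPM asked of a DEG. That library was left out after its chemokine values had been seen, so fits without it are no separate test. Under ALL, Ccl5 was at 1.40, 0.678, 0.618 and 0.888 FPM, also lower in 4 of 4 sets (log2 fold change -1.44, SE 0.461, FDR 0.0707, and 0.00727 without that library).

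After AII + NA, 2 of the 26 members were higher and 1 was lower at an unadjusted p under 0.05, where 4.97% and 4.44% of all genes passed (DEG, 0.0414% and 0.00592%). Ccl20, the attractant of Ccr6-bearing T and dendritic cells, had 1.41, 0.377, 0.0274 and 0.0729 FPM in Control and 3.46, 9.26, 0.229 and 1.37 FPM after AII + NA in sets 1 to 4. It was higher in 4 of 4 sets, by 2.36 to 19.6 times once 0.1 FPM was added to each value, but the range of the sets overlapped. The log2 fold change was 2.91 (SE 0.815, FDR 0.213), and Ccl20 passed when the fit held the 2 groups only (2.90, FDR 0.031). Without set 2's AII + NA library it was 1.66 (FDR 0.525).

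That library stood apart from the other AII + NA libraries. Ccl2 was at 392.3 FPM in it and at 89.3 FPM in the Control of set 2, while in sets 1, 3 and 4 it went from 241, 22.1 and 54.3 FPM to 266, 20.7 and 44.9 FPM. Ccl7 was at 389 FPM against 107 in the set's Control, and in the other sets it went from 402, 31.6 and 53.6 FPM to 411, 27.2 and 59.0 FPM. Only set 2 thus showed a difference of several times in these Ccr2 ligands. The fitted log2 fold changes after AII + NA were 0.82 for Ccl2 (FDR 0.675) and 0.74 for Ccl7 (FDR 0.698), and without this library both turned to -0.33. Cxcl1 went from 28.1 to 110 FPM, Cxcl5 from 16.2 to 70.6 and Ccl19 from 1.54 to 15.3 in set 2. In all, 19 of 22 chemokine genes at 1 FPM or more were higher than in the Control of set 2, with a median log2 ratio of 0.43, and the medians of sets 1, 3 and 4 were -0.11, -0.13 and 0.02. Of 21 genes known to respond to NF-kB, 21 were higher in this library (median log2 ratio 0.83), and in sets 1, 3 and 4 the medians were -0.11, 0.08 and 0.15. Of 20 interferon-response genes, 13 were lower in it. No such count was made over all genes for this library and its Control, so these counts have no background beside them. The reason for this library's values was not tested.

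**Figure D3:**
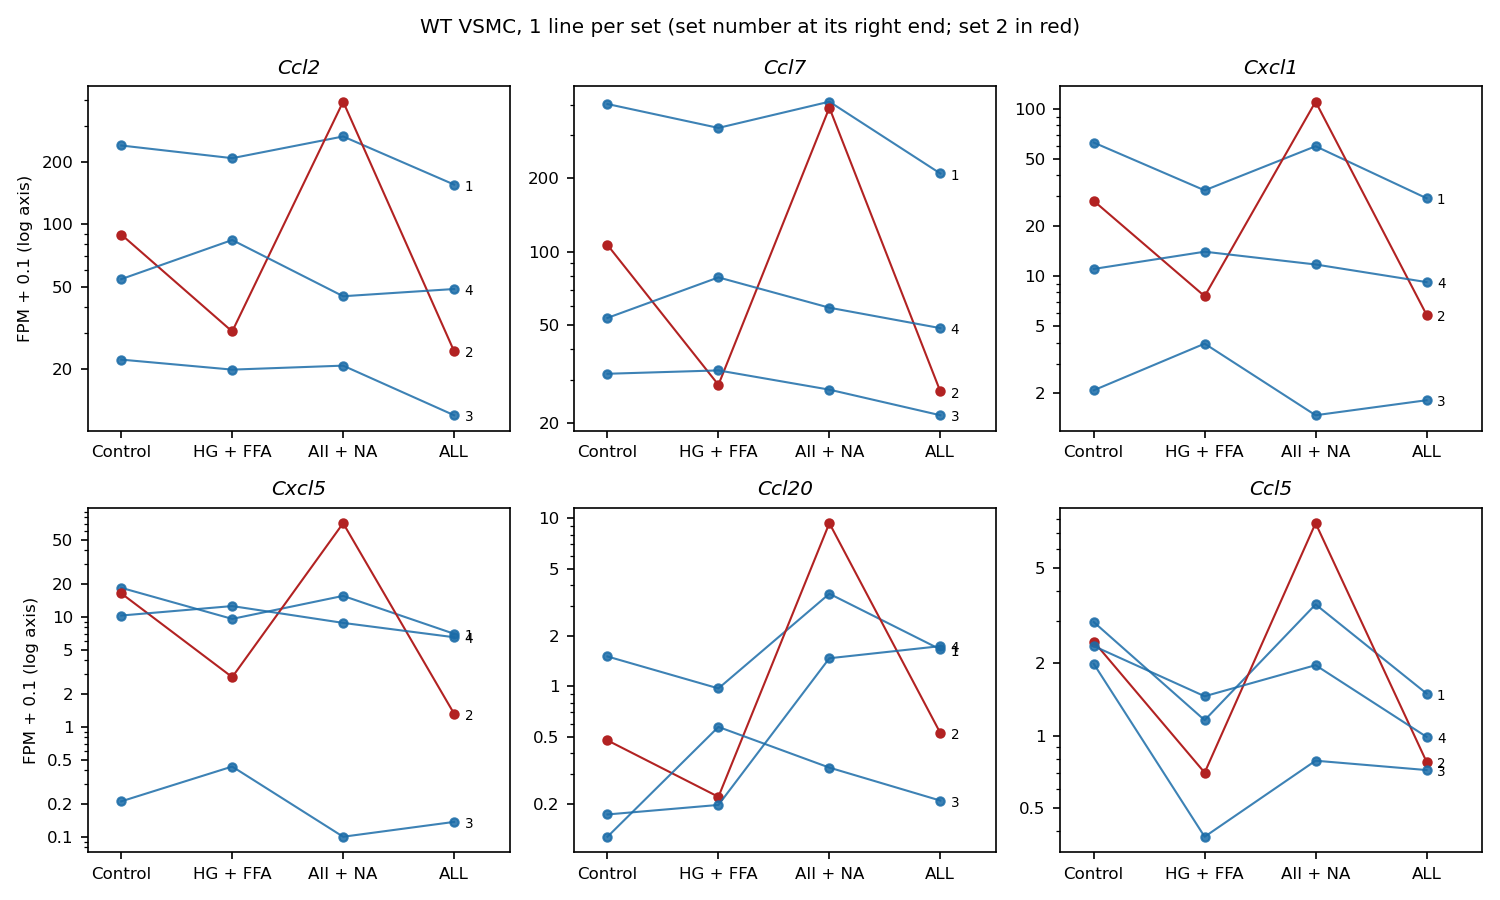
FPM plus 0.1 on a log axis of Ccl2, Ccl7, Cxcl1, Cxcl5, Ccl20 and Ccl5 in the 4 conditions of WT VSMC, with 1 line per set and set 2 in red. The AII + NA library of set 2 is the highest of its line in all 6 panels, for instance 392.3 FPM of Ccl2 against 89.3 in Control.

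Under ALL, 2 of 26 members were higher and 7 were lower than Control at an unadjusted p under 0.05, where 10.9% and 10.8% of all genes passed (DEG, 1.24% and 0.976%). The median log2 fold change of the members was -0.51, beside -0.01 over all genes tested. Ccl2 had 241, 89.3, 22.1 and 54.3 FPM in Control and 156, 24.3, 11.8 and 48.6 FPM under ALL, and Ccl7 402, 107, 31.6 and 53.6 FPM in Control and 209, 26.8, 21.4 and 48.7 FPM under ALL. Both were lower in each of 4 sets, while the ranges of the groups overlapped. The log2 fold changes were -0.78 (SE 0.509, FDR 0.413) for Ccl2 and -0.82 (SE 0.489, FDR 0.358) for Ccl7. Without the AII + NA library of set 2, which shares the estimate of the spread, both were DEG, with -0.93 (FDR 0.0339) for Ccl2 and -0.98 (FDR 0.0334) for Ccl7. As the library was chosen for its high values of these same genes, the 2 calls are no independent evidence. Cxcl5 was lower in 4 of 4 sets as well (-1.56, SE 0.726, FDR 0.224), as were Ccl8 (-0.62, FDR 0.107), Cxcl10 (-1.13, FDR 0.143) and Cxcl16 (-0.51, FDR 0.183). Ccl9 was higher in 4 of 4 sets (0.48, FDR 0.215), and Cxcl12 differed by 0.11 (95% confidence interval -0.14 to 0.35). The summed leukocyte markers had a median of 142 FPM in Control and 116 FPM under ALL, and their part in these values was not tested.

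Against AII + NA, ALL gave 12 lower members and 1 higher at an unadjusted p under 0.05, of 26 tested, where 7.35% and 6.96% of all genes passed (DEG, 0.26% and 0.284%). Leaving out the AII + NA library of set 2 gave 9 lower and 2 higher of 27 tested, and the median log2 fold change went from -0.54 to -0.37. The log2 fold changes with all libraries were -1.60 for Ccl2 (FDR 0.17), -1.56 for Ccl7 (FDR 0.163), -2.53 for Cxcl5 (FDR 0.121), -1.74 for Ccl5 (FDR 0.0768) and -3.16 for Ccl19 (FDR 0.113). Ccl6 was the member in the other direction. It had 0.661, 0.299, 0.718 and 0.381 FPM after AII + NA and 1.40, 1.14, 1.20 and 1.35 FPM under ALL, so the groups did not overlap, and its log2 fold change was 1.31 (SE 0.319, FDR 0.0529, DESeq2 FDR 0.0124) at a level under 3 FPM. Against HG + FFA, ALL gave 0 higher and 1 lower (5.73% and 5.09% of all genes, and DEG 0.0237% and 0.00592%). Departure from additivity gave no DEG among all genes, and at an unadjusted p under 0.05 it gave 0 higher and 1 lower member (Ccl19, -2.83, FDR 1), where 0.787% and 0.929% of all genes passed.

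In KO VSMC no chemokine gene was a DEG either. Of 27 members tested, 1 was higher and 0 lower at an unadjusted p under 0.05 after HG + FFA (6.36% and 6.07% of all genes, and DEG 0.234% and 0.0513%), 0 and 2 after AII + NA (3.92% and 5.83%, with no DEG among all genes), and 0 and 5 under ALL (4.88% and 5.63%, and DEG 0.217% and 0.0969%). Cx3cl1 had 51.6, 210, 101 and 103 FPM in Control of sets 5 to 8 and 176, 72.0 and 98.5 FPM under ALL of sets 6 to 8. It was lower in 3 of 3 sets, by a log2 fold change of -0.24 (SE 0.106, FDR 0.433). The other members under that p were Cxcl16 (-0.40, FDR 0.405), Ccl27a (-0.44, FDR 0.425), Ccl21f (-2.49, FDR 0.456) and Ccl11 (-3.76, FDR 0.295), the last 2 at levels under 1 FPM in both groups. Ccl2 was at 36.5, 23.9, 25.9 and 86.5 FPM in Control and at 16.1, 22.9 and 93.7 FPM under ALL of sets 6 to 8, and showed no common direction. Against HG + FFA, ALL gave 0 higher and 3 lower members at an unadjusted p under 0.05 (1.07% and 1.84% of all genes, with no DEG among them), and against AII + NA 0 and 3 (4.88% and 5.49%, and DEG 0.2% and 0.103%). Additivity gave 1 higher and 0 lower member (2.9% and 3.68%). Cxcl12 was at 4805 to 6600 FPM under ALL against 5075 to 6997 FPM in Control.

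EC held the single chemokine gene that was a DEG under the stressors, Cxcl15. After HG + FFA 21 members were tested, of which 1 was a lower and 0 a higher DEG (0.391% and 0.251% of all genes tested), and 5 were lower and 2 higher at an unadjusted p under 0.05 (8.5% and 8.37% of all genes). The lowest, median and highest of the EC libraries were 0.316, 3.36 and 43.8 FPM in Control, 0 and 0.676 and 34.5 FPM after HG + FFA, 0 and 1.89 and 48.5 FPM after AII + NA and 0 and 0.553 and 39.5 FPM under ALL. The groups overlapped because sets differed by more than conditions did, but within sets Cxcl15 was lower after HG + FFA in 9 of 9. In the sets with the highest level it went from 43.8 to 34.5 FPM (set 14) and from 22.5 to 17.4 FPM (set 9), and at lower levels from 6.18 to 0.816 FPM (set 12) and from 3.36 to 0.872 FPM (set 16), with the deepest drop from 3.49 to 0.0555 FPM in set 18. The log2 fold change was -1.86 (SE 0.414, 95% confidence interval -2.71 to -1.02, FDR 0.00757, DESeq2 FDR 0.00071). Without sets 9, 11 and 13 Cxcl15 was still called (-2.02, FDR 0.0426), and with the animal in place of the set as block it was not (-1.77, FDR 0.0647).

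Under ALL, 1 of 21 members was a lower and 0 a higher DEG in EC (0.414% and 0.222% of all genes tested), and 5 were lower and 0 higher at an unadjusted p under 0.05 (9.35% and 6.83% of all genes). Cxcl15 fell by 1.44 on the log2 scale (SE 0.408, FDR 0.044, DESeq2 FDR 0.014) and was lower in 7 of 9 sets. The call was lost when set 11, 12, 13, 15, 16 or 18 was left out singly (FDR 0.0575 to 0.125), and without sets 9, 11 and 13 together (-1.69, FDR 0.107). After AII + NA its difference was -0.44 (95% confidence interval -1.26 to 0.38, FDR 0.805), with 4 of 8 sets lower.

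Cx3cl1 had a smaller difference in EC. Its lowest, median and highest EC values were 65.1, 136 and 322 FPM in Control, 30.4, 103 and 159 FPM after HG + FFA, 67.3, 124 and 229 FPM after AII + NA and 35.3, 98.5 and 174 FPM under ALL. Within sets it was lower in 9 of 9 after HG + FFA and in 8 of 9 under ALL. The log2 fold changes were -0.42 (SE 0.0975, FDR 0.0114, DESeq2 FDR 0.00204) and -0.43 (SE 0.0975, FDR 0.00999, DESeq2 FDR 0.00193), which passed both tests but not the size of 0.64 asked of a DEG. ALL against AII + NA gave -0.34 (FDR 0.0459, 7 of 9 sets lower), while AII + NA against Control gave -0.09 (FDR 0.849). Without sets 9, 11 and 13 the values for Cx3cl1 were -0.37 (FDR 0.0447) and -0.40 (FDR 0.0373). Without set 13 alone the FDR were 0.054 and 0.0605, and with the animal as block 0.0533 and 0.0519.

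Cxcl10 and Ccl5 were lower in most EC sets. Cxcl10 had a median of 0.746 FPM in Control (0.158 to 3.35), 0.189 after HG + FFA, 0.752 after AII + NA and 0.322 under ALL. It was lower in 7 of 9 sets after HG + FFA (log2 fold change -1.82, SE 0.605, FDR 0.0908) and in 8 of 9 under ALL (-2.04, SE 0.601, FDR 0.0535, DESeq2 FDR 0.0074), at levels under the 3 FPM asked of a DEG. Ccl5 was lower in 7 of 9 sets after HG + FFA (-0.98, FDR 0.175) and in 8 of 9 under ALL (-1.14, FDR 0.114). Without sets 9, 11 and 13, Cxcl10 was at -1.70 (FDR 0.179) and -1.76 (FDR 0.165) and Ccl5 at -1.09 (FDR 0.422) and -1.08 (FDR 0.442). Ccl2 showed the other direction after HG + FFA (0.38, SE 0.183, FDR 0.289, higher in 6 of 9 sets).

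**Figure D4:**
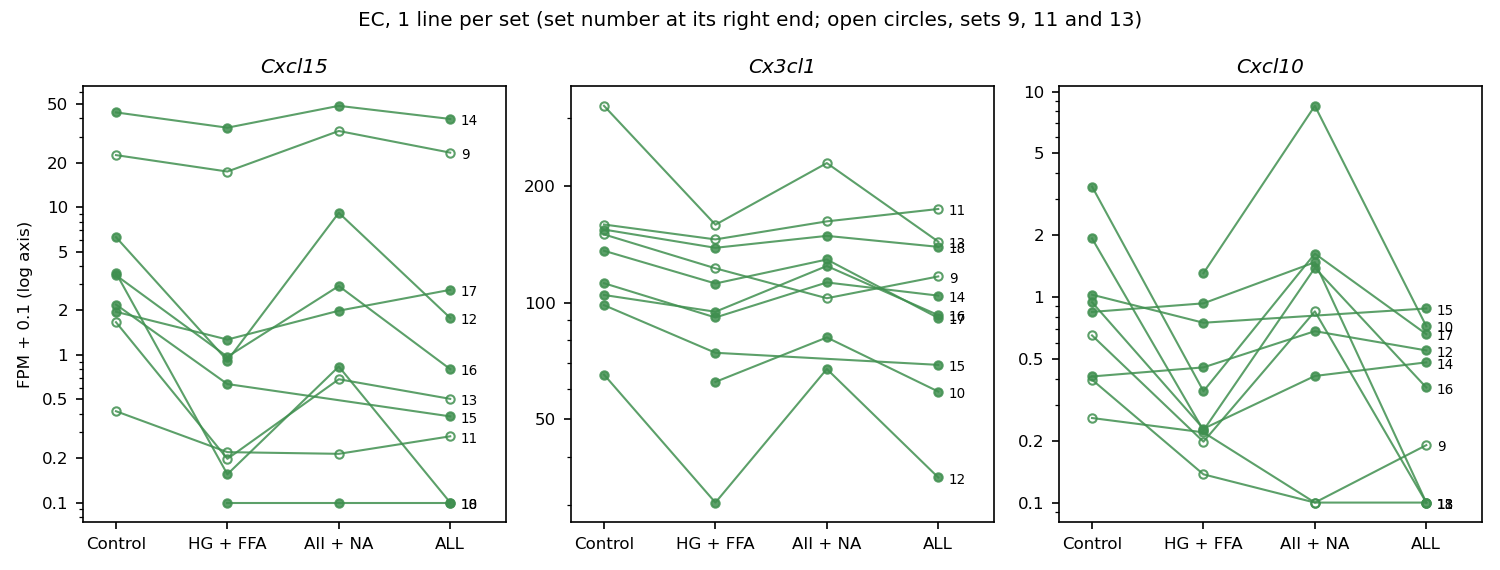
FPM plus 0.1 on a log axis of Cxcl15, Cx3cl1 and Cxcl10 in the 4 conditions of EC, with 1 line per set, open circles for sets 9, 11 and 13 and the set number at the right end. Libraries not analysed here (Control of set 10, AII + NA of set 15) have no point. From Control to HG + FFA the Cxcl15 and Cx3cl1 lines go down in 9 of 9 sets that have both libraries.

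AII + NA gave no DEG among all genes in EC, and 0 higher and 1 lower member at an unadjusted p under 0.05 (2.75% and 3.92% of all genes). ALL against AII + NA gave 0 DEG, and 4 lower and 0 higher members at an unadjusted p under 0.05 (8.88% and 6.48% of all genes, and DEG 0.373% and 0.251%). ALL against HG + FFA gave 0 members in each direction at that p (2.3% and 2.84%), and additivity 0 higher and 1 lower (Ccl25, -0.56, FDR 0.56, beside 3.83% and 4.59%).

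**Figure D5:**
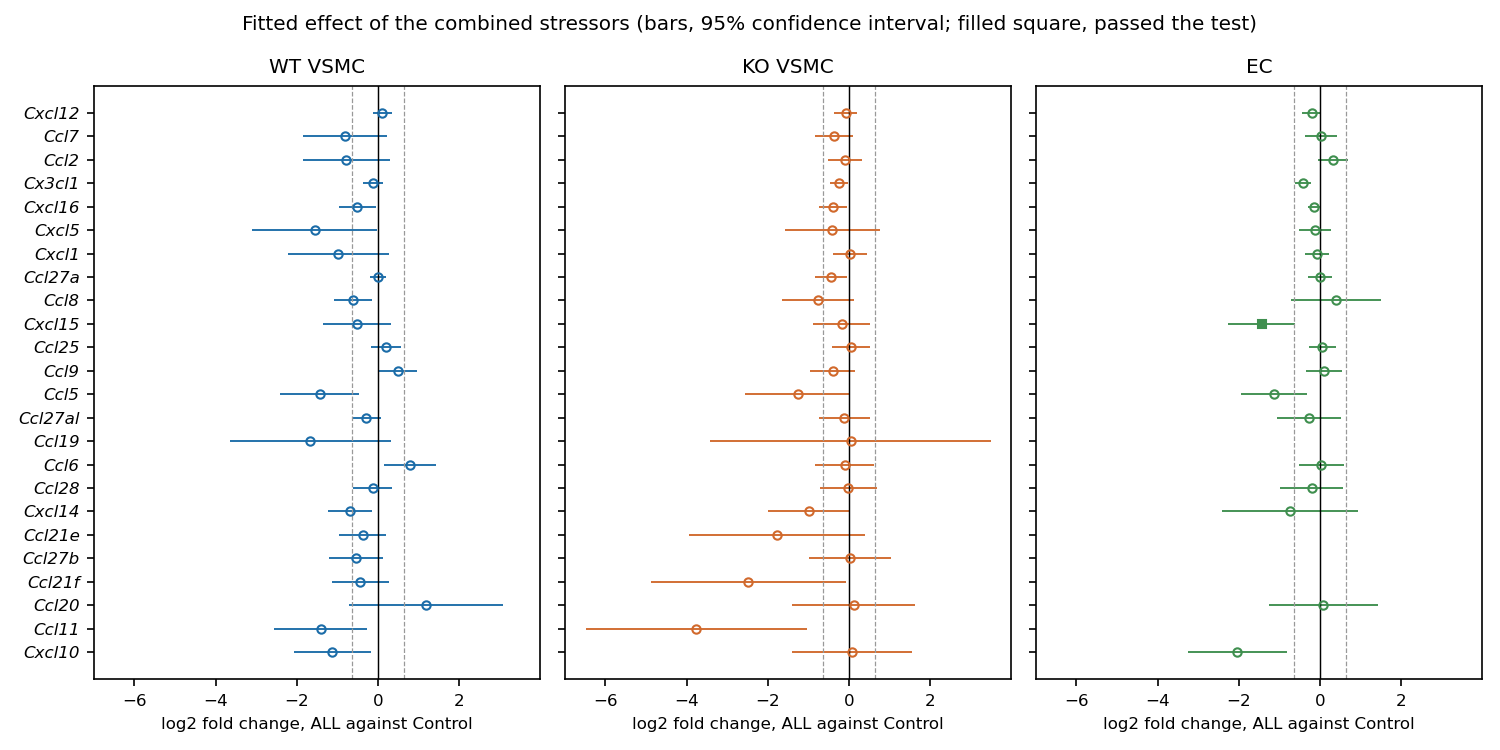
Fitted log2 fold change of ALL against Control for the named chemokine genes that could be tested in WT VSMC, KO VSMC and EC, with 95% confidence intervals, dashed lines at -0.64 and 0.64 and a filled square for a DEG. Cxcl15 in EC, at -1.44, is the filled square, and the Cxcl12 values lie between -0.21 and 0.11.

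The stressor effects were then compared between genotypes and between cell types by interaction terms. No chemokine gene passed. For WT VSMC minus KO VSMC, 32 members were tested and 1 was higher and 0 lower at an unadjusted p under 0.05 for each of the 3 stressors (of all genes, 1.33% and 1.75% for HG + FFA, 6.93% and 4.97% for AII + NA and 4.2% and 3.22% for ALL, and 0.0109% were lower DEG for ALL). These were Ccl9 for HG + FFA (0.75, FDR 1) and ALL (0.89, FDR 0.592) and Ccl20 for AII + NA (2.76, SE 1.26, FDR 0.409). For EC minus WT VSMC, 28 were tested, with 0 higher and 1 lower for HG + FFA (0.811% and 1.24% of all genes), 0 and 0 for AII + NA (3.04% and 3.46%) and 2 and 0 for ALL (2.54% and 3.94%). Over all genes 0.0465% were lower DEG for AII + NA, and 0.0826% were higher and 0.336% lower for ALL. The Cxcl15 difference between EC and WT VSMC after HG + FFA was -1.68 (SE 0.772, FDR 1), so an effect particular to EC was not shown. Without EC sets 9, 11 and 13 no named gene passed in these interactions either (for Cxcl15 after HG + FFA -1.84, FDR 1).

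Without stressors, KO VSMC and WT VSMC were compared on 4 Control libraries each. No member of 25 tested was a DEG (0.00622% of all genes were higher and 0% lower), and 3 were higher and 2 lower at an unadjusted p under 0.05 (6.9% and 5.27%). Cx3cl1 had 40.2, 41.6, 51.4 and 25.1 FPM in WT VSMC and 51.6, 210, 101 and 103 FPM in KO VSMC, so that the groups did not overlap and the lowest KO value was that of set 5, the set with residual Egfr. Markers of other cell types also set KO set 5 apart from KO sets 6 to 8. The 6 fibroblast markers summed to 4408 to 9440 FPM in the WT sets and to 5883 FPM in KO set 5, but to 1491 to 2161 FPM in KO sets 6 to 8. The 3 mesothelial markers summed to 3.27 to 4.58 FPM in the WT sets, 6.28 FPM in KO set 5 and 26.6 to 66.0 FPM in KO sets 6 to 8, with Wt1 under 0.1 FPM on average in both genotypes. Upk3b made up most of the mesothelial sum in KO VSMC (31.2 FPM on average, against 2.13 FPM of Msln). Leukocyte markers were at 189 FPM in KO set 5 and at 37.4 to 56.5 FPM in KO sets 6 to 8. The 7 smooth muscle markers summed to more in KO set 5 than in any other VSMC set. Acta2, the highest of them, was at 2380 FPM in KO set 5 and at 759 to 1770 FPM in KO sets 6 to 8. The part of these cell types in the differences was not tested. The log2 fold change of Cx3cl1 was 1.56 (SE 0.392, FDR 0.299, DESeq2 FDR 0.0106). Without set 5 Cx3cl1 was 1.80 (FDR 0.0321) and a DEG, whereas leaving out set 6, the highest, gave 1.15 (FDR 0.549). Egfr itself differed by -5.15 with an FDR of 0.32 in the same fit. Ccl19 (-3.73, FDR 0.386), Cxcl15 (3.85, FDR 0.401), Ccl5 (-1.30, FDR 0.386) and Ccl27a (0.71, FDR 0.388) were the other members under an unadjusted p of 0.05. Cxcl12 differed by 0.13 (95% confidence interval -0.45 to 0.71).

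EC and WT VSMC differed in 3 of 23 members tested on Control libraries, with 8 EC animals against 4 WT VSMC animals. One animal gave a Control library to both groups (WT set 1 and EC set 9), and the fit took the groups as independent. Cx3cl1 was higher in EC (log2 fold change 1.89, SE 0.389, FDR 0.0108), where 4.99% of all genes were higher DEG. Ccl27a (-1.01, SE 0.286, FDR 0.0377) and Ccl27al (-1.80, SE 0.384, FDR 0.0123), chemokines of skin-homing T cells that share reads, were lower, where 4.35% of all genes were. At an unadjusted p under 0.05, 5 members were higher and 5 lower, where 17.2% and 13.7% of all genes were. Without WT set 2, Cx3cl1 alone was called (1.92, FDR 0.0411), with Ccl27a at -1.005 (FDR 0.0983) and Ccl27al at -1.61 (FDR 0.0551), and Ccl27a was also lost without WT set 1, 3 or 4 or EC set 12, 15, 16 or 18 (FDR 0.0582 to 0.105). Without EC sets 9, 11 and 13, a choice made after the data had been seen, 8 of 20 members tested were called. At an unadjusted p under 0.05, 4 members were higher and 10 lower, where 22.3% and 20.7% of all genes were. The sets left out were the EC sets highest in Cxcl12. In that fit Cxcl12 (-2.77, FDR 0.00696), Ccl7 (-3.12, FDR 0.0192), Ccl8 (-8.39, FDR 0.000451), Ccl27a (-0.94, FDR 0.0213) and Ccl27al (-1.73, FDR 0.015) were lower in EC. Cx3cl1 (1.44, FDR 0.00346), Cxcl16 (FDR 0.0423) and Ccl6 (1.69, FDR 0.0467) were higher. With all sets Cxcl12 was at -0.86 (SE 0.842, FDR 0.515) and Ccl7 at -0.47 (SE 1.18, FDR 0.815). Batch and cell type cannot be told apart in these differences.

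Chemokine receptors were scarce in both cell types. Of 23 listed, 1 averaged at least 1 FPM in WT VSMC, as in KO VSMC, and 5 did so in EC. Ackr3, the scavenging receptor of Cxcl12, was at 164, 109.1 and 252 FPM in WT VSMC, KO VSMC and EC. Next came Ccrl2 in WT VSMC (0.951 FPM), and Ackr4, a scavenger of Ccl19 and Ccl21, in KO VSMC (0.948 FPM) and EC (10.5 FPM). Ackr4 was higher in EC than in WT VSMC (4.78, SE 1.45, FDR 0.047, and 5.45 with an FDR of 0.000602 without EC sets 9, 11 and 13). No receptor was a DEG under a stressor in any cell type.

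Of the proteases and glycan enzymes that process chemokines, Mmp14 and Mmp2 were highest, at 827 and 750 FPM in WT VSMC, at 568.1 and 405 FPM in KO cells and at 324 and 412 FPM in EC. Adam10, which sheds Cx3cl1 and Cxcl16, was higher in EC than in WT VSMC (1.09, SE 0.272, FDR 0.0232, and 1.30 with an FDR of 0.000435 without the 3 EC sets). Of 6 genes listed none was a DEG under a stressor.

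Interferon-response genes, which share the ISRE with Cxcl10, mostly had negative log2 fold changes under HG + FFA and ALL, and a few passed as DEG. The list was chosen with earlier results of these data known. Its counts of negative values are given without the share over all genes. In WT VSMC under ALL, 19 of 20 tested had a negative log2 fold change (median -0.67, beside -0.01 over all genes). Of the 20, 4 were lower DEG, where 0.976% of all genes were. These were Irf7 (-0.85, FDR 0.0328), Usp18 (-1.11, FDR 0.00969), Psmb8 (-0.71, FDR 0.0337) and Psmb9 (-0.79, FDR 0.0301), which encode an interferon regulator, a brake on interferon signalling and immunoproteasome subunits. After HG + FFA 20 of 20 were negative (median -0.56), and after AII + NA 17 of 20 (median -0.20), with 0 DEG in both. The WT sets were not uniform. The median log2 ratios of sets 1 to 4 were -0.92, -0.69, -0.54 and 0.11 after HG + FFA. Under ALL they were -0.98, -0.98, -0.51 and 0.07. In set 4, 16 of 20 genes at 1 FPM or more were higher after HG + FFA and 12 under ALL. In KO VSMC 13 of 20 were negative under ALL (median -0.13), 13 after HG + FFA (median -0.14) and 11 after AII + NA (median -0.02), with 0 DEG, and the interaction gave 0 DEG of 20. In EC 17 of 21 were negative after HG + FFA (2 DEG, Isg15 at -0.81 with an FDR of 0.0482 and Psmb9 at -0.87 with an FDR of 0.000849) and under ALL (2 DEG, Isg15 at -1.10 with an FDR of 0.00743 and Irf7 at -0.66 with an FDR of 0.0273). Over all genes in EC, 0.391% were lower DEG after HG + FFA and 0.414% under ALL. ALL against AII + NA in EC gave 4 lower DEG of 21, Irf7 (-0.69), Isg15 (-1.08), Ifit1 (-1.05) and Gbp3 (-0.91). There 0.373% of all genes were lower DEG. After AII + NA 7 of 21 were negative in EC (median 0.10). Without EC sets 9, 11 and 13 the FDR rose past 0.05 for Isg15 after HG + FFA (0.0526), Irf7 under ALL (0.0549) and Ifit1 in ALL against AII + NA (0.063), and the other EC calls of the list stayed under it. The highest genes of the list were Ifit3 (188 FPM) and Gbp2 (80.6) in WT VSMC, Ifit3 (147) and Irgm1 (107) in KO VSMC and Irgm1 (93.3) and Ifit3 (88.1) in EC. In Control, EC were lower than WT VSMC in Irf7 (-1.57), Stat2 (-0.99), Isg15 (-1.93), Gbp2 (-1.90) and Psmb8 (-1.12), each also under an FDR of 0.05 without the 3 EC sets. In that comparison, with all sets, 4.35% of all genes were lower DEG.

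Genes of the NF-kB response, led by Csf1 (963, 993 and 809 FPM in WT VSMC, KO VSMC and EC) and Vcam1 (596, 565 and 1039 FPM), gave 0 DEG under any stressor. In WT VSMC 22 of 24 tested were positive after AII + NA (median 0.31), with the set 2 library described above. For the 21 genes at 1 FPM or more, the median log2 ratios of sets 1 to 4 were -0.11, 0.83, 0.08 and 0.15. The same comparison gave 10 of 22 positive in KO cells and 10 of 23 in EC. These counts are given without the share of positive values over all genes, so no direction of the list as a whole is drawn from them. In Control, Sele (6.07, FDR 0.0141), the endothelial adhesion molecule E-selectin, and Tnfaip3 (1.55, FDR 0.0358) were higher in EC than in WT VSMC, as they were without EC sets 9, 11 and 13 (6.70 and 1.12, FDR 0.000888 and 0.0268).

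Finally, covariation of chemokine levels was examined across EC animals. As the animals of sets 9, 11 and 13 formed a separate cluster, it was computed over the other 6 animals, for 6 relations, with two-sided exact permutation tests. Ccl2 and Ccl7 had a Pearson r of 0.901 (exact permutation p = 0.0167, adjusted over the 6 relations 0.1) and a Spearman rho of 0.829 (exact permutation p = 0.0583, adjusted 0.35), and r was 0.626 without the 2 animals farthest from the median of Ccl2. Ccl5 and Cxcl10 had an r of 0.862 (exact permutation p = 0.0806, adjusted 0.206) and a rho of 0.714 (exact permutation p = 0.136, adjusted 0.35), and r was 0.0572 without 2 animals, so it rests on them. Ccl2 and Cxcl1 had an r of 0.651 (exact permutation p = 0.153, adjusted 0.229) and a rho of 0.371 (exact permutation p = 0.497, adjusted 0.597), and Cxcl12 with the smooth muscle marker sum an r of 0.67 (exact permutation p = 0.103, adjusted 0.206) and a rho of 0.657 (exact permutation p = 0.175, adjusted 0.35). Without 2 animals these r were 0.896 and 0.862. The leukocyte marker sum had an r of 0.361 with Ccl2 (exact permutation p = 0.478, adjusted 0.573) and of 0.0847 with the summed chemokine FPM (exact permutation p = 0.894), with rho of 0.371 and 0.0857 (exact permutation p = 0.497 and 0.919), and r was 0.604 and 0.482 without 2 animals. None of the 6 passed adjustment.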

How the data were processed

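The authors aligned the reads of 69 poly(A) libraries to the mouse genome (mm39) with HISAT2 2.1.0, assigned them to Ensembl genes with featureCounts, keeping reads with several alignments, and deposited raw counts per gene. The strand setting is not given in the sources used here. No reads were aligned again. Members and gene lists were chosen with earlier results of these data known.

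Gene symbols, types, positions and exon overlap came from GENCODE (GRCm39). R 4.3.3 with edgeR 4.0.16 (TMM, filterByExpr, quasi-likelihood) and DESeq2 1.42.0, and Python 3.11.15 with scipy 1.17.1 and matplotlib 3.10.9 were used. Each cell type was fitted with set and condition, and FDR are Benjamini-Hochberg values across all genes tested. Interactions used joint models of 2 cell types. Levels without stressors were compared on Control libraries, with EC sets 17 and 18 summed. For single values 0.1 FPM was added before log2. Sets are described as cells of one animal and passage treated together, and same-set libraries deviated together (mean correlation 0.797, 0.780 and 0.820 in WT VSMC, KO VSMC and EC). Depth ranged from 17166133 to 43240489 counts, which leaves genes under 1 FPM with few counts. No 2 libraries agreed within sampling noise. Every member that averaged 1 FPM or more in some cell type was named, and of the receptor, NF-kB, interferon and processing lists every DEG and the 2 highest genes per cell type. The steps were tested on simulated counts with known changes. Alternatives were other normalization, filters, thresholds, blocks, and leaving out each set.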

Additional observations from a re-analysis of the deposited data

Results flagged for a closer look

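Each named gene was examined in each cell type for 1 set far from the other sets, by the gap to its neighbour over the whole range of set means on the log2 scale. Of 72 combinations, 7 stood out, where chance flags about 1 in 20 (3.6 of 72). In WT VSMC these were Ccl27a, low in set 1 (10.9 FPM against 15.04 to 15.8 in the others), Ccl9, high in set 4 (8.75 FPM against 3.23 to 3.73), and Cxcl14, high in set 1 (3.60 FPM against 0.564 to 0.747). In KO VSMC, Ccl19 was high in set 5, the set with residual Egfr (1.20 FPM against 0.0626 to 0.0754), Ccl27a was high in set 8 (22.0 FPM against 17.6 to 17.9) and Cxcl10 was low in set 7 (0.199 FPM against 0.554 to 0.662). In EC, Ccl5 was high in set 11 (40.0 FPM against 0.258 to 1.16), 1 of the 3 sets low in endothelial markers.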

How the results depend on the processing

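Low counts, few animals and sets that differ by more than conditions do limit these comparisons. The values below are numbers of chemokine DEG. Without the set as block (no replicate block), EC after HG + FFA and under ALL each gave 0 in place of 1, and the block changed no other count. The animal as block gave 0 in both. EC under ALL also gave 0 with only the 2 groups compared, with complete sets only and without sets 9, 11 and 13, and 0 to 1 when single sets were left out. Without the log2 threshold, EC gave 2 after HG + FFA, 2 under ALL and 1 for ALL against AII + NA. In WT VSMC, AII + NA gave 1 with only the 2 groups compared, ALL gave 2 without the AII + NA library of set 2 (chosen after seeing the data, as was leaving out EC sets 9, 11 and 13), and ALL against AII + NA gave 1 with DESeq2 alone and 1 without the count filter. KO VSMC against WT VSMC gave 2 with DESeq2 alone and 0 to 1 when single sets were left out. EC against WT VSMC gave 5 with DESeq2 alone, 8 without EC sets 9, 11 and 13, and 1 to 3 when single sets were left out (1 without set 2), in place of 3. The cause of these changes was not tested. No chemokine DEG reversed its direction under the alternatives run.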
